A study of Mus musculus with 7 samples.

Results

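The pancreatic proteases described here are 9 genes, taken as the array probes whose accession or description gives Cela1, Cela2a, Cela3b, Cpa1, Cpb1, Ctrb1, Ctrc, Ctrl or Prss3. All 9 were measured, by 11 probes, among 16111 named genes and 29826 genes and unnamed probes tested. The RNA came from lymph nodes of 12-week-old female mice, and every sample was pooled tissue of 5 mice of 1 strain, with no treatment given in the labels. All 7 arrays carried RNA of the node of the pancreas (pancreatic lymph node, PLN) in Cy5 and RNA of another node of the same strain in Cy3. The other node was the mesenteric one of the gut (MLN) on 4 arrays, 1 each of BALB/c, FVB, NOD and NOD.B10, and on 3 (FVB, NOD and NOD.B10) the inguinal one of the skin and mammary fat (ILN). The NOD strain is prone to autoimmune diabetes, and NOD.B10 carries a different major histocompatibility complex. For both NOD.B10 arrays the labels' strain entry says NOD, and their titles and source names were followed.

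These enzymes are made by the acinar cells of the exocrine pancreas as inactive zymogens, stored in granules and released into the gut, where trypsin activates the others. The chymotrypsin-like elastases (Cela1, Cela2a, Cela3b), the chymotrypsins and their relatives (Ctrb1, Ctrc, Ctrl) and the trypsinogen Prss3 are serine proteases that cut inside proteins. Cpa1 and Cpb1 are metal-dependent carboxypeptidases that remove the last amino acid of a peptide. In acinar cells the genes are transcribed under PTF1, a complex of PTF1A, an E protein and RBPJL that binds an E-box together with a TC-rich box.

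RefSeq promoter sequences (build GRCm38.p6) matched 8 of the 9 genes; the other is Ctrc. Because the genes moved together on the arrays, the 250 bases before each start were searched for CACCTG (an E-box of the kind in PTF1 sites) and TTTCCC (the TC-rich box) on both strands, and for TATAAA on the gene's strand. The motifs were chosen with the sequences in view. CACCTG was present in 6 of 8 windows, against 17.2% of 32851 promoters, TTTCCC in 4 of 8, against 21.9%, and TATAAA in 2 of 8, against 7.59%. Both CACCTG and TTTCCC were present in Cela1 and Cela2a, against 3.61% of all promoters. In Cela2a they were not close together, with CACCTG at 218 bases and TTTCCC at 84 bases before the start. Within 150 bases of the start both were present in 1 of 8 windows, that of Cela1, against 1.27% of all promoters. The 150 bases before the start are shown for an elastase with both boxes close together, an elastase with 2 E-boxes, the trypsinogen and a carboxypeptidase, 5′ to 3′ on the gene's strand, with the motif letters in capitals; none overlap.
Cela1: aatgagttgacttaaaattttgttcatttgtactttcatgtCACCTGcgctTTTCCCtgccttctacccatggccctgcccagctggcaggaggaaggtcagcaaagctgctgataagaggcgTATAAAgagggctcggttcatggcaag
Cela3b: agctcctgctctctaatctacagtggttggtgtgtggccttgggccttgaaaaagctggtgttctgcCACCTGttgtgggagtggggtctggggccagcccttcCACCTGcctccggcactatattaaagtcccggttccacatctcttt
Prss3: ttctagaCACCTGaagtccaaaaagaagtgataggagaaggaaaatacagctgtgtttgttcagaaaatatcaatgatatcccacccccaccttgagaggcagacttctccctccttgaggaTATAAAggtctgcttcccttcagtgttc
Cpa1: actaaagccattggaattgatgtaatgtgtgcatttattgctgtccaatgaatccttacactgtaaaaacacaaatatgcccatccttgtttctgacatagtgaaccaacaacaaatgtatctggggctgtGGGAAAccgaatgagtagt
They lie at chr15:100687921-100688070 (minus strand), chr4:137430521-137430670 (minus strand), chr6:41377614-41377763 (minus strand) and chr6:30639068-30639217 (plus strand). In Cela1, CACCTG started 109 bases and TTTCCC 99 bases before the gene's start. Cela3b held CACCTG at 83 and at 46 bases, Prss3 at 143 bases, and Cpa1 held only TTTCCC, on the other strand, at 19 bases. A match describes letters in the window and does not show a bound site.

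The proteases were higher in the PLN than in the other node on 6 of the 7 arrays. The exception was the BALB/c array, where PLN and MLN were about equal after loess normalization, with the PLN spots of 5 of the 9 genes saturated. With median centring in place of loess all 9 lay above 0 there (median 1.57). The median log2 ratio of the 9 genes was 0.11 in BALB/c, 3.09 in FVB, 4.97 in NOD and 4.61 in NOD.B10 against the MLN. Against the ILN it was 4.76 in FVB, 3.76 in NOD and 4.01 in NOD.B10. On those 6 arrays all 9 genes lay above the 99th percentile of all genes (0.43 to 1.01 on the log2 scale). On the BALB/c array 0 of 9 did, with the percentile at 0.3900 and the highest gene, Cela2a, just below it at 0.3893. All 11 probes were well above background in both channels on all 7 arrays, so the MLN and ILN carried measurable signal too. In whole nodes, more cells of a type and more RNA per cell cannot be told apart.

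**Figure D1:**
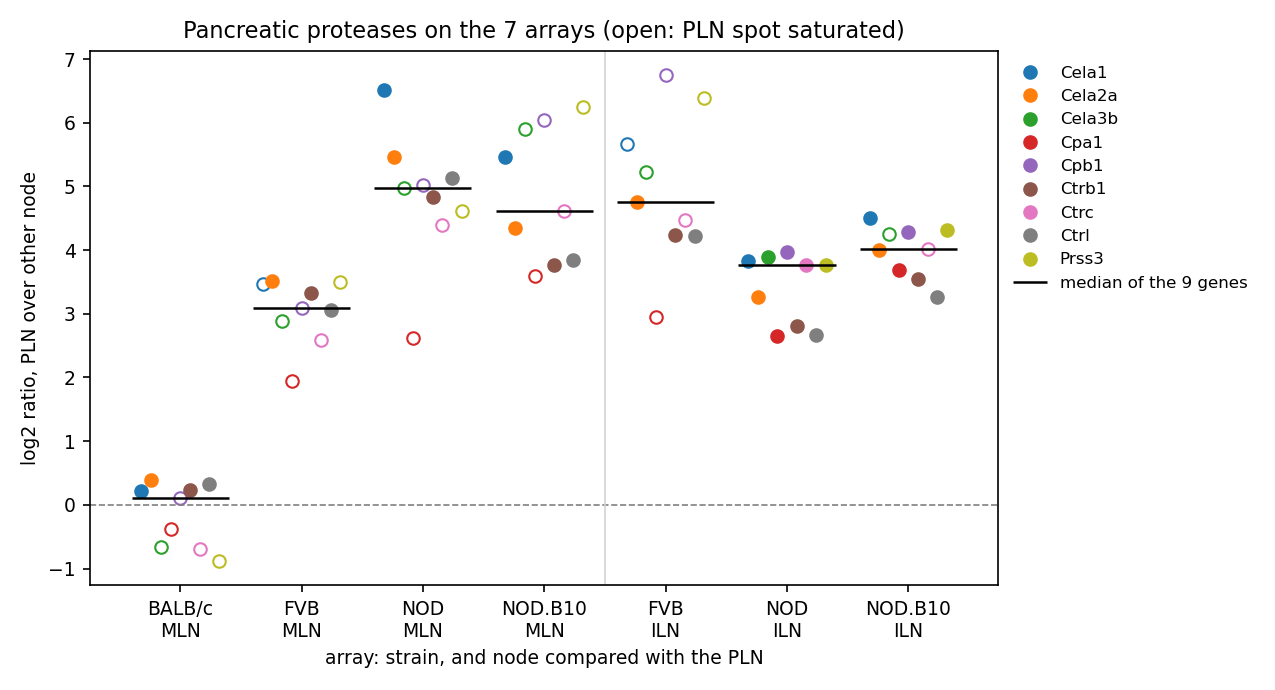
Log2 ratio of PLN over the other node (vertical axis) for each of the 9 genes on each array (horizontal axis); a point is 1 pool pair, a black line the median of the 9 genes, and an open point has a saturated PLN spot, so its ratio is a lower bound. The BALB/c points lie between −0.88 and 0.39, and those of the other 6 arrays between 1.95 and 6.75.

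PLN spots of 5, 6, 5 and 5 of the 9 genes were saturated on the BALB/c, FVB, NOD and NOD.B10 arrays of the MLN, and of 6, 0 and 2 genes on the FVB, NOD and NOD.B10 arrays of the ILN. No spot of the other node was saturated. Ratios with a saturated PLN spot are lower bounds. Cela3b, Cpa1, Cpb1, Ctrc and Prss3 were saturated in the PLN on all 4 arrays of the MLN. Against the ILN, Cela3b and Ctrc were saturated on 2 of 3 arrays and Cela1, Cpa1, Cpb1 and Prss3 on 1 of 3, the FVB array. Cela2a, Ctrb1 and Ctrl were saturated on no array, and Cela1 on both FVB arrays.

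Of the elastases, Cela1 has the older name pancreatic elastase 1. Its log2 ratio against the MLN was 0.22 in BALB/c, 3.47 in FVB (a lower bound), 6.52 in NOD and 5.47 in NOD.B10. Against the ILN it was 5.66 in FVB (a lower bound), 3.83 in NOD and 4.51 in NOD.B10. BALB/c was the low array, and the others did not overlap with it. The fitted difference was 3.92 ± 2.77 (SD, n = 4) for PLN over MLN (15.1-fold; adjusted p = 0.134 in limma). For PLN over ILN it was 4.67 ± 0.93 (SD, n = 3; 25.4-fold, 1 of 3 spots saturated), and its adjusted p of 0.05003 lay just above the threshold of 0.05.

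Cela2a, an elastase that is unsaturated throughout, had log2 ratios of 0.39, 3.51, 5.47 and 4.34 against the MLN in BALB/c, FVB, NOD and NOD.B10. Against the ILN the values were 4.76, 3.26 and 3.99 in FVB, NOD and NOD.B10. It was high on every array but BALB/c. The fit gave 3.43 ± 2.18 (SD, n = 4; 10.8-fold; adjusted p = 0.120) for PLN over MLN and, for PLN over ILN, 4.004 ± 0.75 (SD, n = 3; 16.0-fold; adjusted p = 0.0379), the latter past the threshold in limma.

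Cela3b, whose PLN spot was saturated on 6 of 7 arrays, had ratios of −0.67, 2.89, 4.97 and 5.90 against the MLN in the same strain order and 5.23, 3.89 and 4.26 against the ILN. Its BALB/c value, a lower bound, does not show that the PLN was the lower node. In the fit, the mean of PLN over MLN was at least 9.67-fold (log2 3.27 ± 2.91, SD, n = 4, adjusted p = 0.187). PLN over ILN was 4.46 ± 0.69 (SD, n = 3, 22.0-fold, 2 of 3 spots saturated, adjusted p = 0.0636), and limma passed neither.

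Of the chymotrypsins, Ctrb1 (chymotrypsinogen B) had log2 ratios of 0.23, 3.32, 4.83 and 3.77 against the MLN and 4.23, 2.81 and 3.54 against the ILN. The lowest was again BALB/c. Fitted values were 3.04 ± 1.98 (SD, n = 4; 8.21-fold; adjusted p = 0.125) for PLN over MLN and 3.53 ± 0.71 (SD, n = 3; 11.5-fold; adjusted p = 0.0425 in limma) for PLN over ILN.

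Ctrl, a chymotrypsin-like protease, had ratios of 0.32, 3.06, 5.14 and 3.85 against the MLN and 4.23, 2.67 and 3.26 against the ILN. It followed Ctrb1 in the order of the strains within each comparison. Its fitted ratio in PLN over MLN was 3.09 ± 2.04 (SD, n = 4; 8.53-fold; adjusted p = 0.125) and in PLN over ILN 3.39 ± 0.79 (SD, n = 3; 10.5-fold; adjusted p = 0.0548), past the threshold in neither limma comparison.

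Ctrc, chymotrypsin C, which also processes trypsinogen, had ratios of −0.69, 2.59, 4.40 and 4.61 against the MLN and 4.48, 3.76 and 4.01 against the ILN. It was high on every array but BALB/c. In the fit, the mean of PLN over MLN was at least 6.61-fold and not called (log2 2.73 ± 2.45, SD, n = 4, adjusted p = 0.187 in limma). PLN over ILN was 4.08 ± 0.36 (SD, n = 3, 17.0-fold, 2 of 3 spots saturated, adjusted p = 0.0472 in limma). Its probe was named by its description.

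The trypsinogen Prss3 had ratios of −0.88, 3.50, 4.62 and 6.25 against the MLN and 6.39, 3.77 and 4.32 against the ILN. BALB/c was again the low array, where the value is a lower bound. Against the MLN the PLN was at least 10.4-fold higher in the fit (log2 3.37 ± 3.05, SD, n = 4; adjusted p = 0.202) and PLN over ILN was 4.83 ± 1.38 (SD, n = 3; 28.4-fold, 1 of 3 spots saturated; adjusted p = 0.0656); limma passed neither. Without the FVB array of the ILN the latter was 4.05. A second Prss3 probe, whose accessions also name other trypsin transcripts, differed from it by −0.44 to 1.28 on the log2 scale, and signal of near-identical trypsinogen transcripts cannot be told apart.

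Of the carboxypeptidases, Cpb1 had ratios of 0.11, 3.09, 5.03 and 6.04 against the MLN and 6.75, 3.97 and 4.29 against the ILN. Its fitted mean was at least 11.8-fold in PLN over MLN and not called (log2 3.57 ± 2.61, SD, n = 4, adjusted p = 0.162 in limma). In PLN over ILN it was 5.004 ± 1.52 (SD, n = 3, 32.1-fold, 1 of 3 spots saturated, adjusted p = 0.0409 in limma). Without the FVB array of the ILN, the one with the saturated spot, the latter was 4.13 (adjusted p = 0.146 in limma). Cpa1 had ratios of −0.38, 1.95, 2.62 and 3.59 against the MLN and 2.94, 2.66 and 3.69 against the ILN. The fitted mean of Cpa1 was at least 3.85-fold in PLN over MLN and not called (log2 1.94 ± 1.69, SD, n = 4, adjusted p = 0.184 in limma). In PLN over ILN it was 3.10 ± 0.53 (SD, n = 3, 8.55-fold, 1 of 3 spots saturated, adjusted p = 0.0379 in limma).

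A second Cela1 probe, carried as an unnamed probe and recognised by its clone and description, gave 4.11 for PLN over MLN (adjusted p = 0.134) and 5.03 for PLN over ILN (adjusted p = 0.0455 in limma). It differed from the probe that stood for the gene by −0.11 to 0.82 on the log2 scale.

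Against the MLN, 0 of 9 proteases passed the threshold, and neither did any other gene (0% of 29826 genes called higher). At an unadjusted p under 0.05, 9 of 9 did, as did 4630 genes in all. The median of the 9 genes was 3.27 and that of all genes −0.00. Cela1, Cela2a, Cpb1, Ctrb1 and Ctrl were above 0 on 4 of 4 arrays, as were 15.1% of all genes, and the other 4 genes on 3 of 4. The earlier scanner read the BALB/c and NOD arrays of this comparison and the later one all others. Without the BALB/c array all 9 were called, among 44 genes called higher (0.148% of all), and the median was 4.44. On the later scanner alone, which read 2 of these arrays, Cela2a, Ctrb1 and Ctrl were called, among 19 genes (0.0637%), and the median was 3.93. With strain as a block Cpa1 was called, among 2 genes.

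Against the ILN, Cela2a, Cpa1, Cpb1, Ctrb1 and Ctrc were called higher in the PLN, 5 of 9, beside 1.50% of all genes. The 9 adjusted p-values ran from 0.0379 to 0.0656, so the called and uncalled genes lay close together. All 9 were above 0 on 3 of 3 arrays, against 21.1% of all genes, and their median was 4.08, against −0.00 for all genes. By ratio the 9 genes ranked between 3 and 31 among 29826, and between 4 and 46 against the MLN. Both comparisons shared 1 estimate of spread per gene over all 7 arrays. Leaving out an MLN array thus changed the p-values here and not the ratios. The count rose to 9 without the BALB/c array, where 1.11% of all genes were called higher. It fell to 0 without the FVB MLN (0.681% of all genes), FVB ILN (0.935%), NOD ILN (1.52%) or NOD.B10 ILN array (0.0939%). It was 2 with the scanner as a block (1.22%) and 1 with strain as a block (0.251%). Median centring in place of loess called 0 proteases and 0 genes in all, and the median of the proteases was 4.30.

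**Figure D2:**
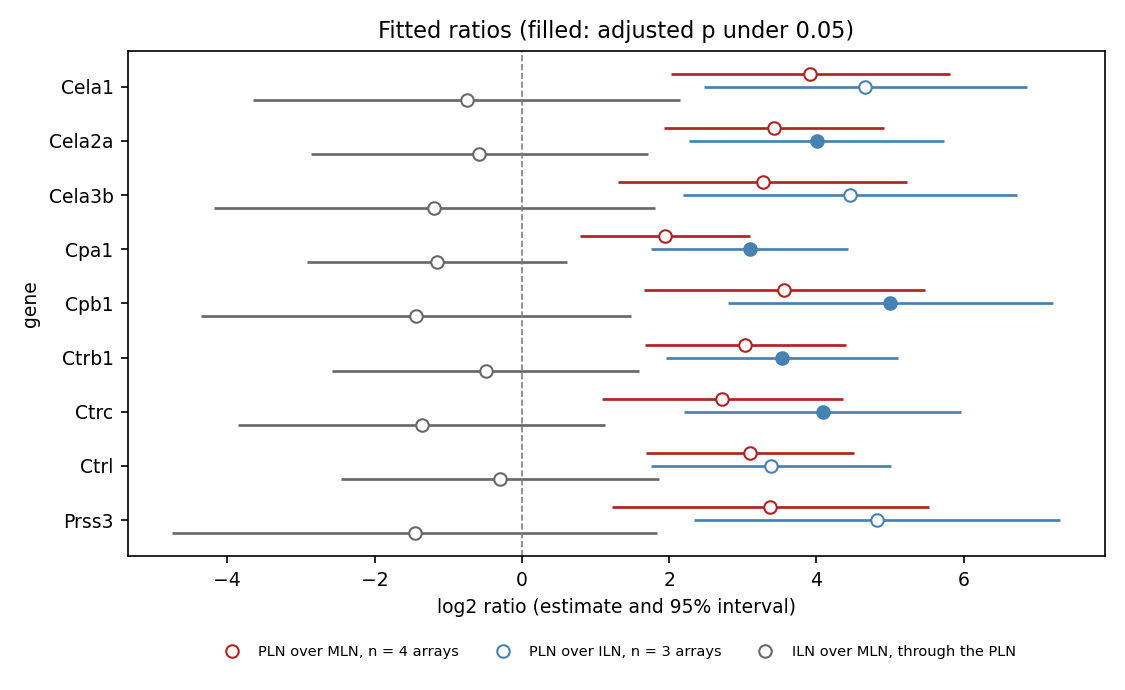
Fitted log2 ratios (horizontal axis) of each gene (vertical axis) with their 95% intervals from limma, for PLN over MLN (4 arrays), PLN over ILN (3 arrays) and ILN over MLN (difference of both); filled points have an adjusted p under 0.05. The filled points are Cela2a, Cpa1, Cpb1, Ctrb1 and Ctrc in PLN over ILN, and all intervals of ILN over MLN span 0.

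In ILN over MLN, read through the PLN, 0 of 9 genes passed (0.255% of all genes did, in either direction), 0 at an unadjusted p under 0.05, with adjusted p-values of 0.876 to 0.986. The ratios ran from −1.46 to −0.29, with a median of −1.15. The median turned to 0.13 without the BALB/c array. Saturated PLN spots lower the PLN over MLN and PLN over ILN ratios whose difference this is. With saturated spots left out, the median of the 4 genes that still had a value was −0.39. Within strains, the median was −1.89 in FVB, 1.08 in NOD and 0.59 in NOD.B10. Taken from the levels scaled between arrays, ILN minus MLN had medians of −1.35 in FVB, −2.07 in NOD and 0.09 in NOD.B10. In NOD these level differences ran from −3.11 to −1.17, opposite in sign to the median read through the PLN. The reading through the PLN rests on the PLN pools being alike on both arrays of a strain.

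In NOD they differed. The log2 PLN level on the ILN array minus that on the MLN array was −5.43 to −2.03 over the 9 genes (median −3.31), and the 5th and 95th percentiles of all genes were −0.83 and 0.50. The signal of the NOD PLN spots was 1.82 to 21.1 times as high on the MLN array. There 5 of the 9 PLN spots were saturated, and 0 on the ILN array, so for those genes the ratios of spot signal are lower bounds. The level differences also rest on the scaling between arrays. For FVB the differences were 0.22 to 0.66 (5th and 95th percentiles of all genes −0.23 and 0.29), with 6 of 9 PLN spots saturated on both arrays. For NOD.B10 they were −1.42 to 0.54 (percentiles −0.49 and 0.45), with 5 of 9 PLN spots saturated on the MLN array and 2 on the ILN array. Both NOD arrays were read on different scanners, and the labels do not say whether they shared 1 PLN pool.

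**Figure D3:**
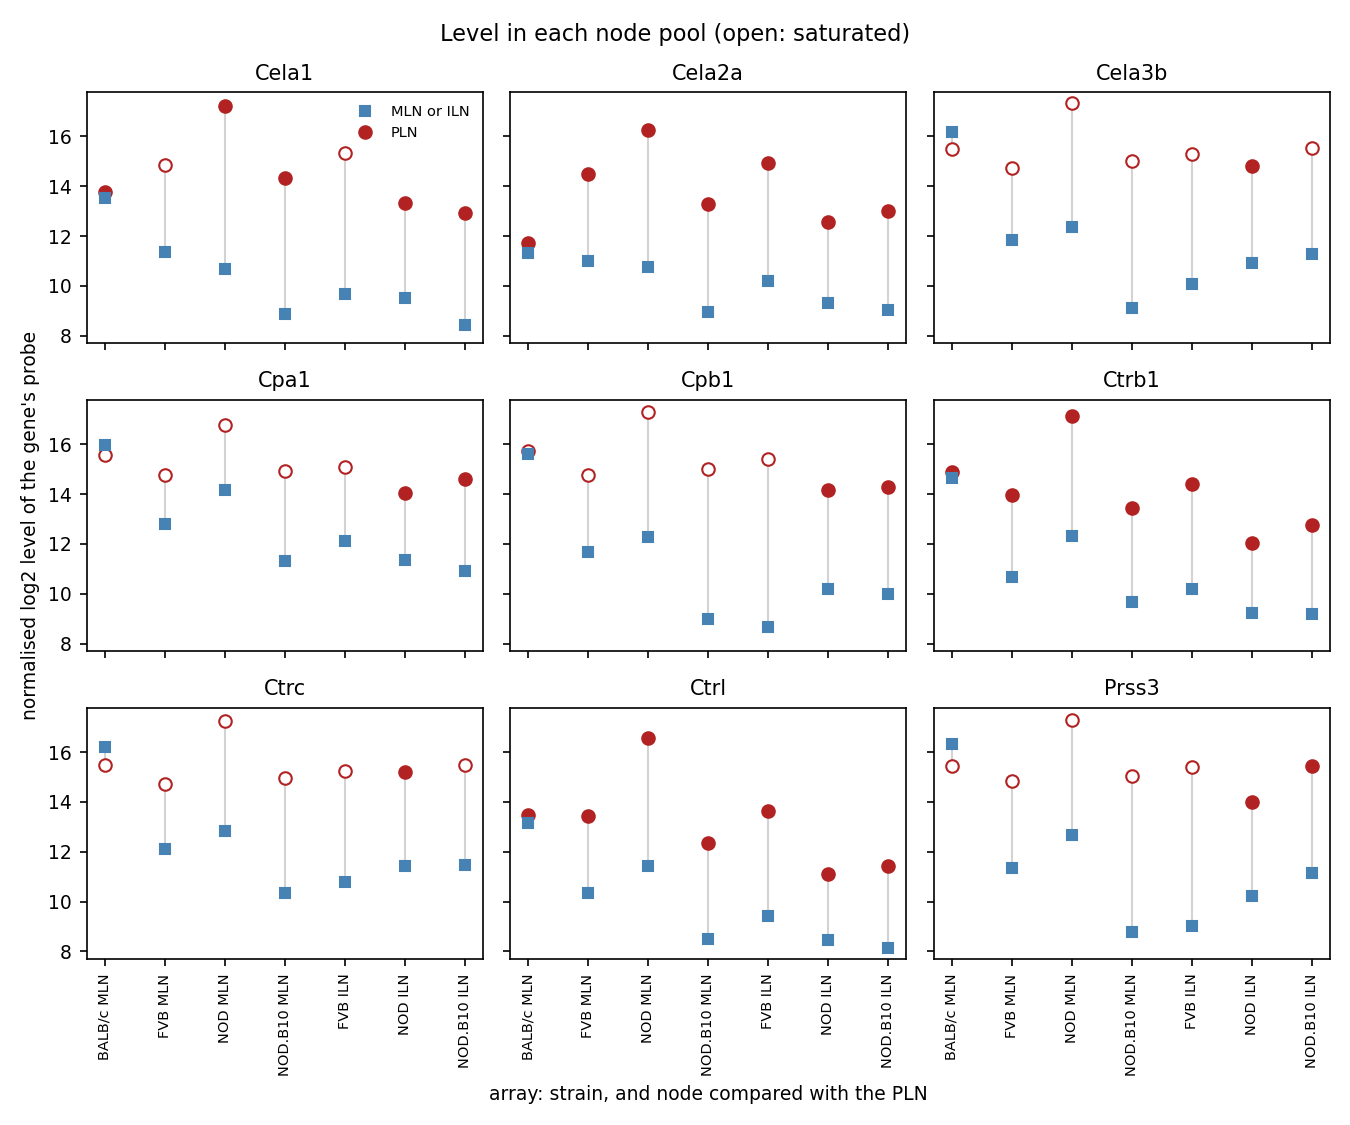
Normalised log2 level (vertical axis) of each gene's probe in the PLN pool (circles) and in the MLN or ILN pool (squares) on each array (horizontal axis); open circles are saturated and levels are read within a gene only. In BALB/c the squares sit beside the circles, and after scaling the NOD MLN array has the highest circle of every gene; where circles are open, their order is not measured.

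The BALB/c MLN had high protease levels. They exceeded the median of the other MLN pools by 0.55 (Cela2a) to 4.97 on the log2 scale, with a median of 3.95, while the 5th and 95th percentiles of all genes were −0.47 and 0.71. The BALB/c PLN differed from the median of the other PLN pools by −2.18 (Cela2a) to 1.19, with all-gene percentiles of −0.44 and 0.72, and 5 of its 9 spots were saturated, so those differences are not measured. Among the genes not saturated there, only Cela2a departed more in the PLN than in the MLN. Ctrb1 and Ctrl, saturated on no array, went the other way, with 4.003 and 2.78 in the MLN and 1.19 and 0.58 in the PLN. So did Cela1, with 2.86 in the MLN and −0.83 in the PLN, though its PLN spots on both FVB arrays were saturated. The signal of the BALB/c MLN spot was 2.64 (Cela2a) to 33.5 times (Cela3b) that of the NOD MLN spot, read on the same scanner, against 0.851 and 1.24 times at the 5th and 95th percentiles of all genes. The FVB MLN spot, read on the other scanner, was brighter than the BALB/c one for Cela1 (4886 against 2569) and Cela2a (3593 against 1043). For the other genes it was dimmer. The excess over FVB for Cela1 and Cela2a thus rests on the scaling between arrays. The summed level of the 9 genes was 393393 in the BALB/c MLN, 7479 to 53501 in the other MLN pools and 12041 to 12234 in the ILN pools. The lowest MLN pool thus lay below every ILN pool.

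The BALB/c ratio depended on the normalization. With median centring in place of loess the 9 genes lay between 0.65 and 1.66 (median 1.57), with the scanner software's ratios between −0.72 and 0.40, and with the pancreatic genes kept out of the loess curve (tried after seeing the data) between −0.88 and 0.39. With saturated spots left out, the 4 remaining genes lay between 0.22 and 0.39. Under each of these the BALB/c median stayed below those of the other 6 arrays.

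The 9 genes varied together. Over 7 arrays the pairwise correlation ran from 0.777 to 0.998 (36 pairs, median 0.931), and without the BALB/c array from 0.0804 to 0.992 (median 0.672); genes on an array share its pools, dyes and normalization. Among 14878 named genes, those nearest to the median of the 9 over the 7 arrays included Prss2 and Try5 (trypsinogens), Cel (carboxyl ester lipase), Zg16 (a zymogen granule protein), Dmbt1, Gp2 (the main granule membrane glycoprotein) and Amy2 (amylase). Their root mean square difference from that median was 0.27 for Prss2 to 0.63 for Amy2, on the log2 scale.

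Other secretory products of acinar cells were also high in the PLN, though not all of them. The trypsinogens Prss2 and Try5 were called in PLN over ILN (3.92 and 4.25; adjusted p = 0.0425 and 0.0361 in limma) and not in PLN over MLN (3.18 and 3.21; adjusted p = 0.131 and 0.136). Of 6 lipases and related genes 3 were called higher against the ILN (median 3.83), beside 1.50% of all genes. Cel at 4.38 and Clps, the lipase cofactor, at 3.45 were called, and Pnlip, pancreatic lipase, at 4.21 (adjusted p = 0.0600 in limma) was not. Of 12 granule and Reg proteins 2 were called higher (median 2.91), beside the same 1.50%. They were Zg16 at 4.32 and Rnase1 at 3.01, while Sycn, syncollin, at 3.76 was not called (adjusted p = 0.0646 in limma). The ratios of this list ran from 0.05 for Reg3g, a defence lectin named after its value was seen, to 5.10. Against the MLN 0 of the 6 lipases and related genes and 0 of the 12 granule and Reg proteins was called.

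Among 7 acinar transcription factors 0 was called in either comparison, with medians of 0.03 against the MLN and 0.02 against the ILN. Rbpjl, the acinar partner in PTF1, was at 1.06 (adjusted p = 0.264) and 1.07 (adjusted p = 0.212), and Bhlha15, a factor of secretory cells, at 1.41 and 0.98, while Nr5a2 was at −0.11 and 0.02. Ptf1a, named after its values were seen, was at 0.56 and 0.61 and well above background in the PLN on 5 of 7 arrays; 3 other factors were so on at most 1 array, so the median rests partly on dim probes. Of 6 inhibitors, activators and receptors of these proteases, with the cathepsins Ctsb, Ctsl and Ctsd among them, 0 was called (medians −0.09 and 0.27). Serpini2, a serpin of this list named after its values were seen, was at 2.86 in both comparisons (adjusted p = 0.145 and 0.0913 in limma).

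Proteases of other cells had medians near 0. Of 14 serine proteases and carboxypeptidase A of mast cells, granulocytes and lymphocytes, 0 was called higher and 1 lower in PLN over ILN (median 0.02), beside 0.463% of all genes called lower, with the mast cell chymase Cma1 at −0.05, cathepsin G (Ctsg) at 0.28 and granzyme A (Gzma) at 0.00. In the PLN, 5 of the 14 were well above background on at most 2 of 7 arrays. Of 8 carboxypeptidases of other tissues 2 were called higher against the ILN, beside 1.50% of all genes. They were Cpe at 0.52 (adjusted p = 0.0108 in limma) and Cpq at 0.52 (adjusted p = 0.0219), and the median of the 8 was 0.05.

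**Figure D4:**
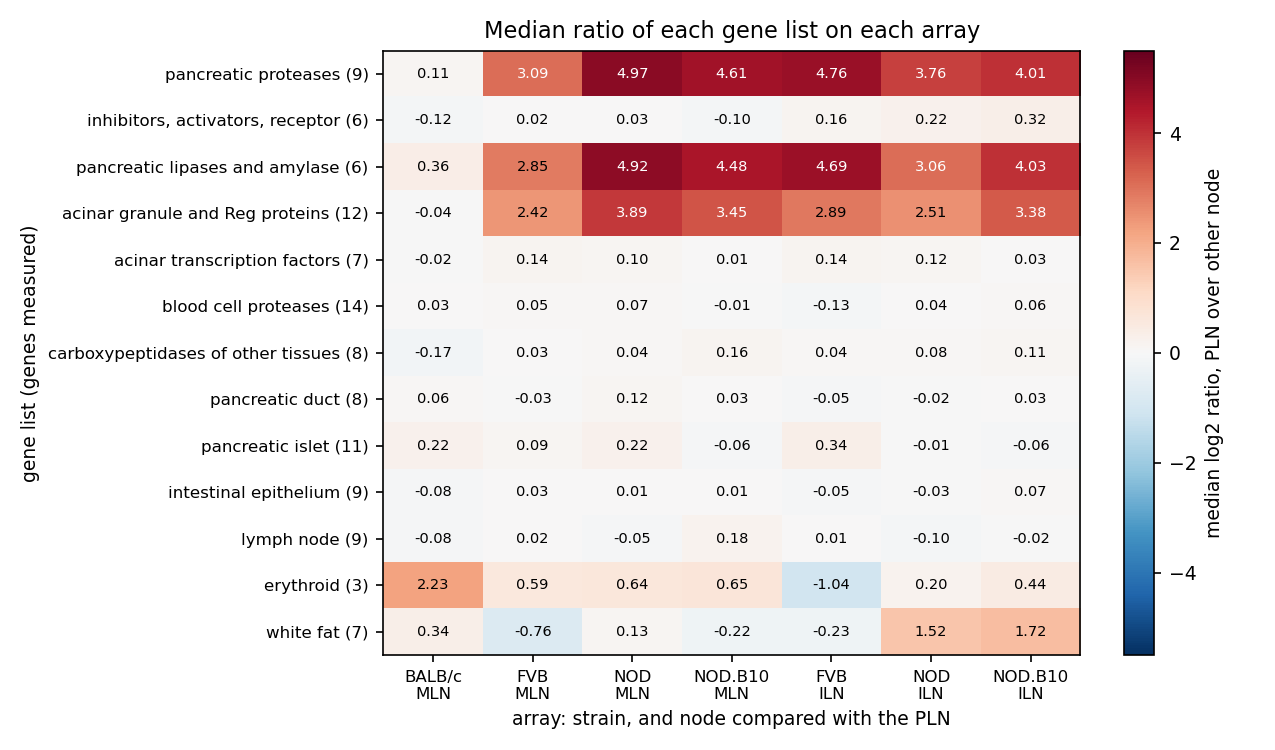
Median log2 ratio of PLN over the other node (colour and printed number) for each gene list (rows, with the number of genes measured) on each array (columns). The 3 lists of acinar secretory products (proteases, lipases and amylase, granule and Reg proteins) have medians of 2.42 to 4.97 on the arrays other than BALB/c and −0.04 to 0.36 on BALB/c.

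Markers of other tissue that a dissected node could hold were set beside these. Of 8 duct genes 0 was called in either comparison, with medians of 0.01 and −0.02, and their summed level was 709 to 868 in the PLN, 750 to 785 in the MLN and 718 to 770 in the ILN. Of 11 islet genes 0 was called; Ins2, insulin, was at 2.01 against the MLN (adjusted p = 0.168) and 0.95 against the ILN (adjusted p = 0.364), and the summed level was 943 to 2992 in the PLN 925 to 1261 in the MLN and 949 to 1168 in the ILN. Of 9 intestinal genes 1 was called higher, against the ILN (Anpep at 0.63, adjusted p = 0.00975 in limma), beside 1.50% of all genes. Of 3 erythroid genes 0 was called, and their median was 2.23 in BALB/c and −1.04 to 0.65 elsewhere; their summed level was 1367 to 84946 in the PLN, 1192 to 11192 in the MLN and 926 to 12359 in the ILN. Of 7 fat genes 0 was called, with medians against the ILN of −0.23 in FVB, 1.52 in NOD and 1.72 in NOD.B10 and summed levels of 4033 to 39391 in the PLN, 8089 to 31824 in the MLN and 2296 to 6449 in the ILN. The islet gene Slc2a2 and the intestinal Cdx2 did not pass the background filter. Their part in the protease ratios was not tested. Of 9 lymph node markers 2 were called lower in the PLN than in the ILN (0.463% of all genes were), with Ptprc, the pan-leukocyte CD45, at −0.59 (adjusted p = 0.00736), and all nodes expressed Ptprc, the B cell gene Ms4a1 and Ccr7 well above background on all 7 arrays.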

How the data were processed

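The files are per-array output of the scanner software Agilent Feature Extraction, version 8.5.1.1. Spot and background values are intensity in linear units, and LogRatio is a log10 ratio of red to green, per the file headers; spot marks are 0 or 1. The deposited series table holds log2 values that, where LogRatio is not 0, followed it (r at least 0.9997) up to a constant per array whose reason is not stated; column medians were 0.0073 to 0.0935. Background (median pixels) was corrected by limma's (version 3.58.1, R 4.3.3) normexp at an offset of 50, and arrays were normalised by loess with control and outlier spots at weight 0. Kept were 35817 of 41174 probes, those well above background on 3 or more arrays in either channel; the brightest stood for its gene. RefSeq accessions named 22072 probes and descriptions 2100, and 17002 had no symbol.

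All 7 arrays entered 1 model with coefficients for PLN over MLN and PLN over ILN, whose difference is ILN over MLN. Tests were two-sided, adjusted by Benjamini-Hochberg over 29826 genes, and called at an adjusted p under 0.05. Levels are log2 values after loess and Aquantile. Without dye swaps, an effect of the dye on a probe stays in the PLN comparisons and in levels. The p-values measure spread between pools of different strains, and the number of arrays limits precision. Each gene has 1 estimate of spread over all 7 arrays, so p-values for PLN over ILN also reflect spread among the MLN arrays. The SD values are those of the arrays of 1 comparison. Saturated spots kept their value. Where the PLN spot was saturated on every array of a group, the fitted mean fold is given as "at least". That wording covers saturation alone and not the spread between arrays. The members and lists were chosen with earlier results of these data known. Up to 3 members of each other list were named, those with the highest mean level (called genes among them were not preferred), and the nearest genes by root mean square difference. Some genes that these rules give are not reported here. The fit was tested on simulated data. Alternatives are given in the closing section.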

Additional observations from a re-analysis of the deposited data

Results flagged for a closer look

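On the NOD array of the MLN, 2 normalised log2 PLN levels lay far above those of the other 6 PLN pools: Cela3b at 17.3, against 15.5 for the next pool, and Ctrc at 17.2, against 15.5. In both cases the next pool was saturated as well, with spot signals of 65230 and 65243 for Cela3b and of 65230 on both arrays for Ctrc. The gap is thus between scaled values of spots at the same ceiling and is no measured difference. They were 2 of 27 groups tested, and chance flags about 1 in 20 groups.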

How the results depend on the processing

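In PLN over MLN and PLN over ILN, every protease kept its direction under every alternative that could be fitted (22 at most per gene; with saturated spots left out, 5 genes had no value in PLN over MLN). The count of proteases called in PLN over ILN, 5 in the report, was 0 with median centring (0% of all genes called higher), with a normexp offset of 0 (0.144%), with the Agilent LogRatio (0.181%) and with the deposited values (0.0872%), 9 with only probes well above background on all 7 arrays (3.50%) and on the later scanner only (0.888%), 2 with the scanner as a block, and 1 with strain as a replicate block. Leaving out 1 array at a time gave 0 to 9 in PLN over ILN and 0 to 9 in PLN over MLN. In PLN over MLN the count, 0 in the report, was 3 on the later scanner only and 1 with strain as a replicate block. With strain as a replicate block the median in PLN over ILN was 2.99. The replicate numbers only name arrays, so the block is the strain, which both node comparisons share for FVB, NOD and NOD.B10; the labels do not say whether pools were shared. In ILN over MLN, where 0 genes were called, 21 single-gene values changed sign and 172 did not. With median centring Cela1 was at 0.23, Cela2a at 0.35, Ctrb1 at 0.49 and Ctrl at 0.64. With strain as a replicate block, and equally without the BALB/c array, Cela1 was at 0.49, Cela2a at 0.44, Cela3b at 0.13, Ctrb1 at 0.44 and Ctrl at 0.63. With the scanner as a block, and equally on the later scanner only, Ctrb1 was at 0.017, Ctrl at 0.070 and Prss3 at 0.046. Without the FVB array of the ILN, Ctrl was at 0.13. Over the fits that leave out 1 array, Cela1 ran from −1.61 to 0.49, Cela2a from −1.26 to 0.44, Cela3b from −2.06 to 0.13, Ctrb1 from −1.09 to 0.44 and Ctrl from −0.97 to 0.63. The cause was not tested. The mean of the background pixels (4 called in PLN over ILN) and a loess curve without pancreatic genes (5 called) were added after seeing the data. Saturation limits the largest ratios.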
